A study of Mus musculus with 7 samples.

Results

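RNA sequencing values of 10 genes that encode the chaperones and proteases of the mitochondrial matrix and inner membrane are described here in mouse oocytes that lack *Mfn1*, the gene of the outer-membrane fusion protein mitofusin 1. The genes were taken by name as effectors of the mitochondrial unfolded protein response, and all 10 were found among the 22877 genes of the authors' table. Oocytes enclosed in secondary follicles were isolated from 8-week-old females of C57BL/6J strain. One group was Mfn1-/-, in which a Cre transgene driven by the *Zp3* promoter removes floxed *Mfn1* in growing oocytes and leaves it in granulosa cells (3 libraries), and the other was WT littermates (4 libraries). The number of WT libraries is that of the labels and of the weights in the table's sum, whereas the study's methods describe groups of equal size, so which WT libraries entered its own comparison is not known here. Each library was made from the cDNA of 5 pooled oocytes, and ovaries of both genotypes were digested with collagenase and the follicles with Accutase.

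A mitochondrion imports most of its proteins unfolded. In the matrix, HSP70 pulls the chain in and passes it to the HSP60 and HSP10 chaperonin for folding, while LON and CLPXP degrade damaged or surplus proteins, and the m-AAA protease does so for proteins of the inner membrane. When unfolded proteins build up in the matrix, cells can raise the transcription of these chaperones and proteases, which is the mitochondrial unfolded protein response. Growing oocytes accumulate large numbers of mitochondria.

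The pair of chaperonin genes *Hspd1* and *Hspe1* lies head to head on chromosome 1, and the stretch between their starts is shown because both genes start from the same piece of DNA. It covers the 107 bases between the start of the full-length *Hspd1* transcript and that of *Hspe1* in GENCODE M21. The 250 bases before the RefSeq starts of *Clpp* and *Clpx*, the subunits of a single protease, are shown beside it. These genes were chosen because their log2 fold changes, before any adjustment, differed by 0.58. The sequences are from RefSeq (GRCm38.p6) on the + strand, and capitals mark matches to the motifs named in the next paragraph.
Hspd1 and Hspe1, chr1:55088025-55088131: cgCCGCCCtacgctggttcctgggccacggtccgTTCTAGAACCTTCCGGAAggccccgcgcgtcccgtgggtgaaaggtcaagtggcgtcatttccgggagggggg
Clpp, chr17:56990014-56990263: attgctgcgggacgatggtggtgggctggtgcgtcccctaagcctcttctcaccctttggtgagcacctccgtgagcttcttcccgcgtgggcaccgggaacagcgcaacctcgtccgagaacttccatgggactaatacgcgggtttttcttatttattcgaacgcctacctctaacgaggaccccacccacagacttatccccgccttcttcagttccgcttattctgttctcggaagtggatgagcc
Clpx, chr9:65294010-65294259: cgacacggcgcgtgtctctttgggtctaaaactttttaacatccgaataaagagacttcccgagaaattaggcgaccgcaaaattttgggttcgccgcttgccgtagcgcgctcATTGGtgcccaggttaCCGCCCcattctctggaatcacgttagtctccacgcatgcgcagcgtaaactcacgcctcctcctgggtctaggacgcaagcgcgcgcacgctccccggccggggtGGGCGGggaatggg

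Windows from 250 bases before to 50 bases after the start were held for 8 of the 10 members (9 windows), not for *Hspa9* and *Afg3l2*. They were searched on both strands. The heat shock element, the site of heat shock factor 1, was searched as 3 alternating units of TTC and GAA, in either order, with 2 bases of any kind between units. It was found in the windows of *Hspd1* and *Hspe1*, which overlap, and in 0.603% of all 32851 windows. In the shared stretch it appears as a pair of matches that overlap in the run TTCTAGAACCTTCCGGAA. The core of the CHOP and C/EBP element (TGCAAT) was likewise found for *Hspd1* and *Hspe1*, outside the stretch shown, and in 8.4% of all windows. Both matches were the same site in the overlap of their windows, at -22 from a RefSeq start of *Hspd1* and -199 from that of *Hspe1*. The C/EBP and ATF4 element (TGATGNAA) was found for 0 members, against 3.97% of all windows, and the ETS site (CCGGAAGT) for 0 members, against 3.89%. The NRF1 site (GCGCA and GCGC with 1 base between them) was found for *Dnaja3*, *Hspd1* and *Spg7* (4.6% of all windows), the CCAAT box for 3 members (37.4%) and the GC box (GGGCGG) for 6 (35.7%). In the stretches shown the capitals are heat shock elements, GC boxes and a CCAAT box, and the *Clpp* stretch holds 0 matches to the motifs searched.

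The table holds a single mean of normalized counts per gene and genotype. No spread between libraries and no depth per library can therefore be given, and no difference in this report has a replicate check or a test. *Mfn1* itself had a mean of 0.0577 in Mfn1-/- and 0.616 in WT oocytes. The values fall with transcript length as reads per length do, so levels are compared between genes on that scale. Of 12 oocyte marker genes all were found, and 11 had a mean of at least 1, led by *Ooep* (1310 in Mfn1-/- and 1120 in WT) and *Dppa3* (812 and 816), with *Kit* below 1. They ran from 0.679 to 1310 in Mfn1-/- and from 0.922 to 1120 in WT oocytes, and their summed means were 4090 and 3670. *Figla* (34.9 and 18.7) and *Bmp15* (158 and 181) had the highest and lowest fold change among the 11. Of 14 granulosa cell markers 12 had a row, 3 higher and 9 lower in Mfn1-/- oocytes, from 0.016 to 1.87 in Mfn1-/- and from 0.0171 to 0.954 in WT oocytes, and none of them was at the lowest value of the table. Only *Inha* averaged 1 or more, so the direction of the others rests on low values. Of all genes that averaged 0.1 or more, 39.8% were lower in Mfn1-/- oocytes, but most of these markers averaged less. Their summed means were 2.4 and 1.78, most of it *Inha* (1.87 and 0.954), followed in the mean over all libraries by *Cyp19a1* (0.0846 and 0.193). Their part in the values of the members was not tested. In pooled oocytes, fewer cells of a type and less RNA per cell cannot be told apart.

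Fold changes are log2 ratios of Mfn1-/- over WT after adding 0.1 normalized counts to each mean, which understates differences of low genes. Of the 10 members, 9 had their higher mean in the mutant and 1, *Afg3l2*, in WT oocytes. The median log2 fold change of the members was 0.23. Of the 6226 genes that averaged 1 or more over the 7 libraries (called expressed here), 65.4% were higher and 34.2% lower in Mfn1-/- oocytes, and their median was 0.16. By the 65.4%, a higher mean was the common direction of the table as deposited. With the median of 0.16 subtracted 50% of the expressed genes were higher, and with an adjustment for GC content 49.8%. Both shares are so by construction, since medians of these same genes were subtracted. Relative to the median of 0.16, 7 members were higher and 3 lower, with a member median of 0.07. With the GC adjustment the split was also 7 and 3. *Hspa9* and *Lonp1* were the members whose direction turned under both. A 2-fold difference was reached by 0 members, against 8.69% of the 6226 genes, and a 1.5-fold difference by *Clpp* alone, against 23.2% (15.5% higher and 7.71% lower). With the GC adjustment 0 members were past 1.5-fold, *Clpp* then being at 0.49, and on the plain ratio of means *Spg7* also exceeded it. A mean of at least 1 was reached by 6 members, and all 10 are counted above. Of the 13830 genes that averaged 0.1 or more, a set with every member in it, 59.9% were higher, 39.8% lower, 11.5% past 2-fold and 27.0% past 1.5-fold.

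**Figure D1:**
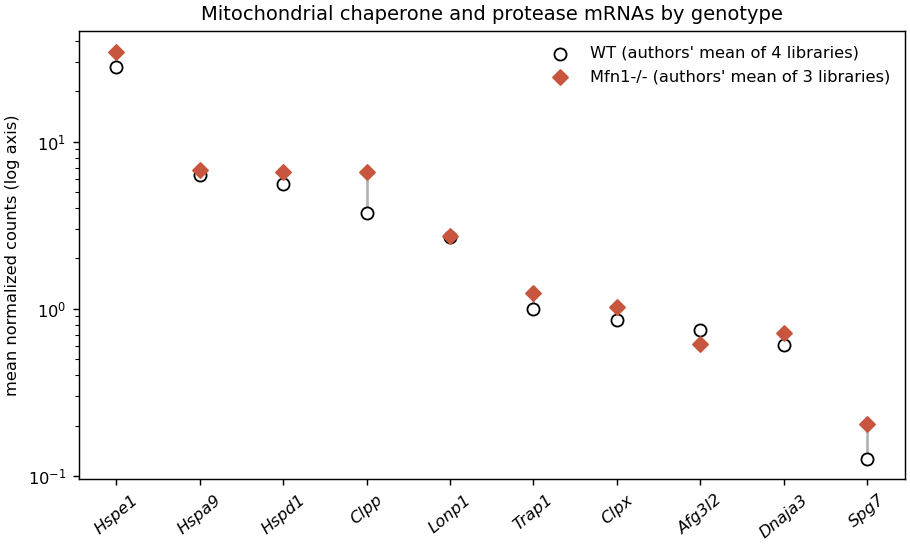
Mean normalized counts (vertical log axis) of the 10 members in WT (open circles) and Mfn1-/- oocytes (diamonds), joined by a line, in order of mean level; each symbol is 1 mean by the authors and has no error bar. The symbols lie close together for most genes, and the widest gaps are those of *Clpp* (3.75 in WT and 6.58 in Mfn1-/-) and, at the lowest level, *Spg7* (0.126 and 0.204).

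Of the matrix chaperones, *Hspe1* had the highest level in both genotypes, followed by *Hspa9* and *Hspd1*. *Hspe1* encodes HSP10, the lid of the HSP60 chamber (chromosome 1, 55088132 to 55091307), and had a mean of 34.6 in Mfn1-/- and 27.9 in WT oocytes. Its log2 fold change was 0.31, or 0.15 above the median of expressed genes. *Hspe1* stood above 96.6% of all genes in Mfn1-/- and 96.4% in WT oocytes, and it made up 56.6% and 56.3% of the summed means of the 10 members. It thus had the largest share of the 10 rows on a per-length scale in both genotypes, and this share hardly differed between them. The sum leaves out *Hspd1-ps3*, a near-identical copy of *Hspd1* with a mean of 22.1 in Mfn1-/- and 18.3 in WT oocytes.

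*Hspd1* encodes HSP60 itself (chromosome 1, 55077835 to 55088243) and averaged 6.62 in Mfn1-/- and 5.58 in WT oocytes (log2 fold change 0.24). The 2 chaperonin genes, which share their upstream DNA, thus differed by 0.07 in log2 fold change, and the ratio of *Hspe1* to *Hspd1* was 5.23 in Mfn1-/- and 5 in WT oocytes. These levels of *Hspd1* are uncertain, because its processed pseudogene *Hspd1-ps3* on chromosome 11 (41498737 to 41500458) shares 1722 bases with it at 99% identity. *Hspd1-ps3* was listed with a mean of 22.1 in Mfn1-/- and 18.3 in WT oocytes, above *Hspd1*. Reads from either could have been counted on the other, and how the authors' counting treated them is not given in the sources used here. *Hspd1* made up 23.1% and 23.4% of the sum of both rows, so the division was alike in the genotypes. Summed, they gave 28.7 and 23.9, a log2 fold change of 0.26, and 0.83 and 0.856 times the level of *Hspe1*. Whether reads were misplaced was not tested.

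Exons of *Hspd1* and *Hspe1* also overlap on opposite strands over 112 bases. The library kit does not mark strand, so reads there cannot be told apart. Of *Hspe1*, pseudogenes *Hspe1-ps1* (0.115 in Mfn1-/- and 0.0867 in WT), *Hspe1-ps2* (1.66 and 0.7) and *Hspe1-ps3* (0.442 and 0.204) had rows, all far below the gene. A further gene, *AC117239.2*, shares 515 bases with *Hspe1* at 99% identity, and no value of it was used here.

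*Hspa9* encodes mitochondrial HSP70 (mortalin), the motor of import and the first chaperone that a new matrix protein meets (chromosome 18, 34937414 to 34954357). Mutant oocytes had a mean of 6.79 and WT oocytes one of 6.35. On the log2 scale the difference was 0.10, but -0.06 relative to the median of expressed genes and to -0.05 with the GC adjustment. Its pseudogene *Hspa9-ps1* was at 0.47 and 0.315. *Dnaja3* encodes the J-domain partner that stimulates its ATPase (chromosome 16, 4639989 to 4707695), and had 0.72 in Mfn1-/- and 0.608 in WT oocytes, a log2 fold change of 0.21. The ratio of *Hspa9* to *Dnaja3* was 9.43 and 10.4, and the motor had the higher level per length in both genotypes. Exons of *Dnaja3* overlap *Coro7* on the opposite strand (0.125 and 0.0493) and *Vasn* on the same strand (0.0165 and 0.02), which were low beside it.

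*Trap1*, the mitochondrial HSP90 (chromosome 16, 4039971 to 4077827), had a mean of 1.24 in Mfn1-/- and 1 in WT oocytes. The log2 fold change was 0.28 with the pseudocount of 0.1, 0.13 after subtraction of the median of expressed genes and 0.05 after the GC adjustment. It overlaps *Dnase1* on the opposite strand, which was at 0.0709 in Mfn1-/- and at the lowest value of the table, 0.01, in WT oocytes. Across the 5 matrix chaperones the log2 fold change ran from 0.10 to 0.31, and 4 of the 5 lay above the median of expressed genes.

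The matrix proteases are *Clpp* and *Clpx*, the subunits of CLPXP, and *Lonp1*, and all 3 had a higher mean in the mutant, *Lonp1* only before the adjustments. *Clpp*, the peptidase (chromosome 17, 56990305 to 56996188), had a mean of 6.58 in the mutant against 3.75 in WT oocytes, which is 1.75 times as much. Its log2 fold change of 0.79 was the highest of the 10 members and exceeded that of 91.2% of expressed genes and of 92% of 2218 genes of like level (within 2-fold of *Clpp*). It was 0.49 after the GC adjustment, and *Clpp* had the highest GC content of the members, 57.8%. *Clpx* encodes the unfoldase that feeds the peptidase (chromosome 9, 65294260 to 65330658) and had 1.02 and 0.862, a log2 fold change of 0.22. The ratio of *Clpp* to *Clpx* was 6.45 in Mfn1-/- and 4.35 in WT oocytes, so that in the unadjusted means the peptidase mRNA stood further above its unfoldase in the mutant. With the GC adjustment the log2 fold changes were closer, 0.49 for *Clpp* and 0.14 for *Clpx*, whose GC content was 44.6%. A *Clpx* pseudogene, *Gm37981*, was at 0.197 and 0.207, while for *Clpp* 0 other genes shared 75 bases at 95% identity.

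*Lonp1*, the LON protease, which degrades oxidized matrix proteins (chromosome 17, 56614297 to 56626887), had 2.71 in Mfn1-/- and 2.67 in WT oocytes. The log2 fold change of 0.02 was closest to 0 of the 10, and it became -0.14 relative to expressed genes and -0.32 with the GC adjustment. The ratio of *Lonp1* to *Clpp* was 0.412 in Mfn1-/- and 0.712 in WT oocytes. *Lonp1* and *Clpp* had the lowest and the highest log2 fold change of the matrix proteases, and a GC content of 56.5% and 57.8%. The part of GC content in this difference was not tested.

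The members that encode subunits of the m-AAA protease of the inner membrane had opposite directions. *Afg3l2*, whose product can form the protease alone (chromosome 18, 67404764 to 67449172), had 0.611 in Mfn1-/- and 0.746 in WT oocytes, a log2 fold change of -0.25. It exceeded that of 17.3% of expressed genes, and was -0.41 relative to their median. *Spg7* encodes paraplegin, which assembles with partner subunits such as AFG3L2 (chromosome 8, 123062942 to 123097760), and had the lowest level of the 10, 0.204 and 0.126. Its log2 fold change was 0.43, and it ranged from 0.10 with a pseudocount of 1 to 0.69 with none, since at such a mean the pseudocount decides the value. The ratio of *Afg3l2* to *Spg7* was 3 in Mfn1-/- and 5.92 in WT oocytes. *Afg3l2* nevertheless had the higher level of the pair in both genotypes. The related gene *Afg3l1*, counted among the other proteases below, had 0.124 in Mfn1-/- and 0.103 in WT oocytes.

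**Figure D2:**
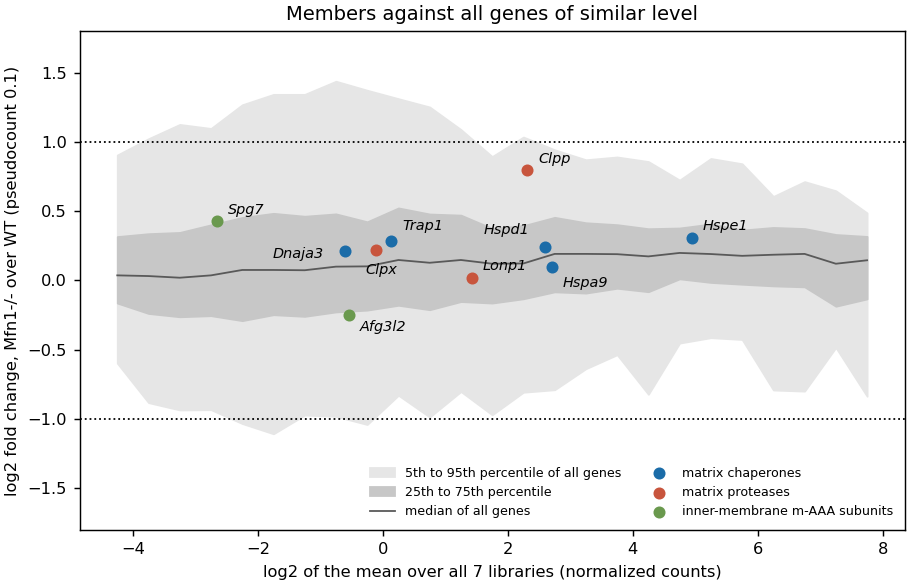
Log2 fold change of Mfn1-/- over WT (vertical axis, pseudocount 0.1) against the log2 of the mean over all libraries (horizontal axis) for the 10 members, coloured by role, over bands that hold the 25th to 75th and the 5th to 95th percentile of all genes of the same level; dotted lines mark 2-fold. Most members sit near the median line of all genes, *Clpp* (0.79) lies well above the inner band, and *Hspa9* and *Lonp1* lie below the median line although above 0.

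The members were also set beside genes of their own level. Within 2-fold of each member's mean there were 933 to 4942 genes. The fold change of 7 members lay between the 25th and 75th percentile of those genes, and that of *Clpp*, *Afg3l2* and *Spg7* outside. By definition as many of all genes lie outside that range as within it. *Afg3l2* (-0.25 against a 25th percentile of -0.23) and *Spg7* (0.43 against a 75th percentile of 0.41) were just outside, and *Clpp* (0.79 against 0.42) was clearly so. The order of levels was led by *Hspe1* in both genotypes. *Hspa9*, *Hspd1* and *Clpp* came next and were close together in Mfn1-/- oocytes (6.79, 6.62 and 6.58), whereas in WT oocytes *Clpp* (3.75) was below both others (6.35 and 5.58). The place of *Hspd1* in this order is uncertain, since with *Hspd1-ps3* it summed to 28.7 in Mfn1-/- and 23.9 in WT oocytes. With no spread between libraries, it cannot be said which neighbours in this order differ. The summed means of the members were 61.1 and 49.6, a ratio of 1.23, against 1.1 for the sum of all genes, and 0.0429% and 0.0381% of that sum.

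Other genes of mitochondrial protein quality control were taken from lists of 33 genes, all with a row. In the mutant 25 of them were higher and 8 lower, with a median log2 fold change of 0.28. Of expressed genes 65.4% were higher, and of genes that averaged 0.1 or more 59.9%. The same shares stand beside the counts of higher genes in each list below. Relative to the median of expressed genes 22 were higher, against 50% of expressed genes. With the GC adjustment 18 of the 32 with a GC value were higher, against 49.8%. A 2-fold difference was reached by 0 of the 33, and 1.5-fold by 8 (all higher), against 15.5% of expressed genes higher by that much. Relative to the median of expressed genes 5 were past 1.5-fold, and 5 with the GC adjustment, of which *Grpel1*, *Grpel2*, *Bcs1l* and *Atp23* were past it under both. No share of expressed genes past 1.5-fold is given here for either adjustment, so these counts have no background beside them. A mean of at least 1 was reached by 22 of the 33, and all 33 are counted. On the plain ratio 1 of the 33 passed 2-fold, *Atf5*, at means of 0.0405 and 0.0155.

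Among 7 other chaperones, 6 were higher (4 with the GC adjustment) and 3 of them by over 1.5-fold, against 15.5% of expressed genes. *Grpel1* and *Grpel2* encode the nucleotide exchange factors of mitochondrial HSP70. *Grpel1* had 27.7 in Mfn1-/- and 16.1 in WT oocytes, a log2 fold change of 0.78, where *Hspa9* had 0.10, and the ratio of *Hspa9* to *Grpel1* was 0.245 and 0.394. *Bcs1l*, which inserts the Rieske protein into complex III, had 3.03 and 1.56 (0.91), the highest of the lists. *Hscb*, a co-chaperone of iron-sulfur cluster assembly, had 11.1 and 8.91 (0.31), and *Dnlz*, which keeps mitochondrial HSP70 soluble, had 9.4 and 8.1 (0.21, or -0.13 with the GC adjustment). Of the other HSP70 partners the table gave *Grpel2*, named after its value was seen, with 2.77 and 1.49. The lower gene of the 7, *Dnajc19*, also named after its value was seen, had 0.838 in Mfn1-/- and 1.11 in WT oocytes. Its log2 fold change of -0.37 (-0.36 with the GC adjustment) was the lowest of the lists.

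Among 7 other proteases of quality control, 6 were higher (5 relative to the median of expressed genes and 5 with the GC adjustment). *Htra2*, a protease of the intermembrane space, had 11.4 and 7.25, a log2 fold change of 0.65 (0.27 with the GC adjustment). *Atp23*, a metalloprotease of the inner membrane, had 2.19 and 1.26 (0.75). *Parl*, the rhomboid protease, had the highest level, 33.7 and 36.4 (-0.11). Of 7 peptidases that process imported precursors 4 were higher (3 under either adjustment), with a median of 0.07 (-0.09 relative to expressed genes and -0.07 with the GC adjustment). *Pmpcb*, a subunit of the processing peptidase, had 2.6 and 1.98 (0.38), *Pitrm1*, which degrades cleaved presequences, 1.41 and 0.857 (0.66), *Immp1l* 1.47 and 1.82 (-0.29) and *Mipep* 0.867 and 1.1 (-0.31).

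Of 4 genes whose products hold the membrane proteases in place or work beside them, 2 were higher and 2 lower, with a median of 0.14 (-0.01 relative to expressed genes and -0.11 with the GC adjustment). *Phb2*, a prohibitin of the ring around the m-AAA protease, had 45.8 in Mfn1-/- and 51.3 in WT oocytes (-0.16), and *Stoml2*, which scaffolds inner-membrane proteases, had 29.4 and 22.9 (0.36). Among 8 regulators of the stress response, 7 were higher (6 relative to expressed genes, and 4 of the 7 with a GC value). *Cebpb*, a partner of CHOP, had 67.6 and 37.1, a log2 fold change of 0.86 (0.49 with the GC adjustment). *Ddit3*, the gene of CHOP itself, named here after its value was seen, had 18.6 and 18.2. Its log2 fold change was 0.03 (-0.13 relative to expressed genes and -0.03 with the GC adjustment). *Atf4*, the main factor of the integrated stress response, had 55.4 and 45.5 (0.28, or 0.01 with the GC adjustment). *Eif2ak1*, the HRI kinase, had 0.996 and 1.24 (-0.29).

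**Figure D3:**
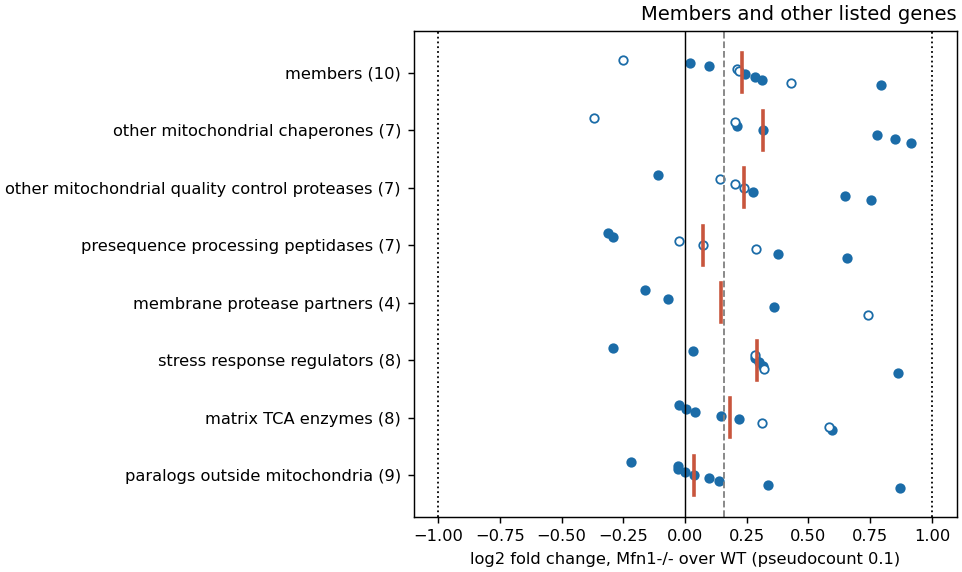
Log2 fold change of Mfn1-/- over WT (horizontal axis, pseudocount 0.1) for the members and 7 further lists, with the number of genes in brackets; filled points are genes with a mean of at least 1, open points are lower genes, red bars are list medians, the dashed line is the median of expressed genes (0.16) and dotted lines mark 2-fold. The members (median 0.23) overlap with every other list, and no point reaches 2-fold.

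A pair of lists served for comparison with mRNAs outside this system. Of 8 matrix enzymes of the citric acid cycle, which are clients of these chaperones, 7 were higher, with a median of 0.18 (4 higher, with a median of 0.02, relative to expressed genes, and 5 with the GC adjustment). *Mdh2* had 23.5 and 15.5 (0.60), *Idh3a* 9.53 and 8.18 (0.22) and *Dlst* 1.65 and 1.68 (-0.02). The 9 paralogs of the members that work outside mitochondria had a median of 0.04 (-0.12 relative to expressed genes and -0.04 with the GC adjustment), with 5 higher, 3 lower and *Hsp90aa1* equal at 125. *Hspa8*, the cytosolic counterpart of *Hspa9*, had 159 and 87 (0.87), and *Hsp90b1*, the counterpart of *Trap1* in the endoplasmic reticulum, 9.53 and 11.1 (-0.22). The medians of the members and of these lists were not tested against each other.

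**Figure D4:**
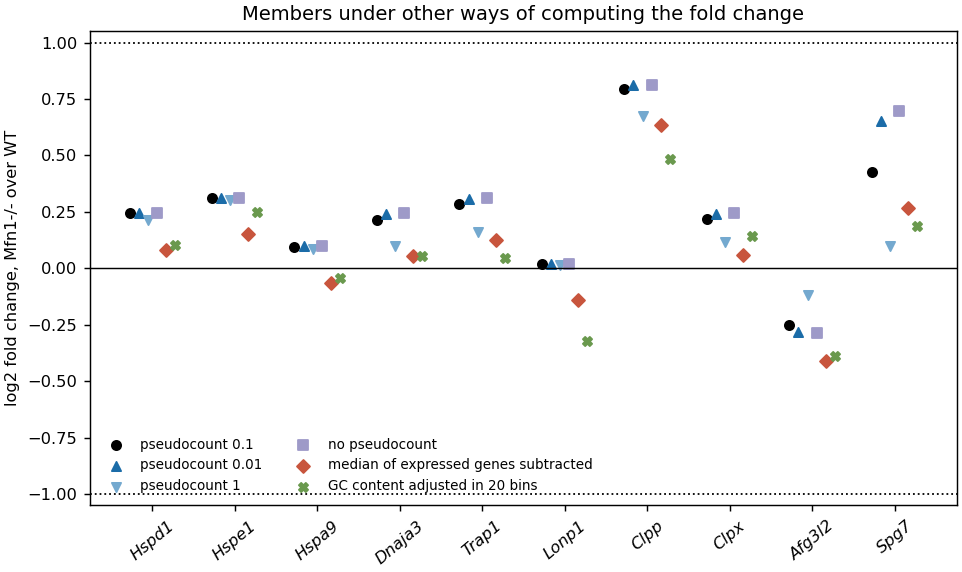
Log2 fold change of Mfn1-/- over WT (vertical axis) of the 10 members, each computed in 6 ways shown by symbol; dotted lines mark 2-fold. *Clpp* stays between 0.49 and 0.81 and *Afg3l2* below 0 in all 6, *Hspa9* and *Lonp1* turn below 0 after the median subtraction and the GC adjustment, and *Spg7* varies most with the pseudocount.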

How the data were processed

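Smart-Seq2 cDNA of 5 pooled oocytes per library was made into Nextera XT libraries and sequenced as paired 75-base reads. Upstream, the authors used Cutadapt for adapters, the FASTX-Toolkit for low quality and STAR for alignment to the GRCm38/mm10 genome before counting by gene. The deposited signal consists of genotype means of normalized counts, plus a sum over libraries, and is nowhere below 0.01. The normalization method and the strand setting are not given in the sources used here. For 100% of genes that sum was recovered, within 1%, by weighting the means by 3 Mfn1-/- and 4 WT libraries. Further columns hold the authors' p-value, FDR, ratio and fold change for the same contrast and were not used.

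Log2 fold changes were computed from the means with a pseudocount of 0.1, and genes with a mean of at least 1 formed the background. Levels were taken as per length because the 5th percentile of values above 0.01 fell from 0.0205 for transcripts under 500 bases to 0.0006 for those of 8000 bases or more. Positions, overlaps, GC content and transcripts were from GENCODE M21 (GRCm38), and copies were searched with blastn 2.17.0 (at least 75 bases at 95% identity). GC values were held for 21934 genes. GC adjustment subtracted the median of expressed genes in 20 bins. The row of *Dele1* was found under its older name. Named genes were *Mfn1*, the members and, of each list, the 2 of highest mean, the highest and lowest fold change among genes with a mean of at least 1 and any such gene past 2-fold. The members and lists were chosen with earlier results of these data known, and the motifs with some of the sequences in view. The code was tested on simulated data. Python 3.11.15, numpy 2.4.6, pandas 2.3.3 and matplotlib 3.10.9 were used.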

Additional observations from a re-analysis of the deposited data

How the results depend on the processing

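No paired analysis was possible because the table gives 1 mean per genotype, and for the same reason leaving out single libraries was not run. The count of members past 2-fold was 0 under every pseudocount (0.01, 1 or none), the median subtraction and the GC adjustment, and 1 (*Clpp*) with a threshold of 1.5-fold. Under that threshold, a pairing of choices added after seeing the data, 0 members passed with the GC adjustment and 2 with a pseudocount of 0.01 or none. Of the wider lists 8 genes passed as reported, 5 after either adjustment or at the pseudocount 1, and 10 at 0.01 or none. Outside the reported setting, no share of expressed genes past 1.5-fold is given here to set beside these counts. The median log2 fold change of the members was 0.24 with a pseudocount of 0.01, 0.11 with 1, 0.24 (0.245) with none, 0.072 after subtraction of the median of expressed genes, 0.08 after GC adjustment and 0.24 (0.242) with *Hspd1* summed with *Hspd1-ps3*, an alternative chosen after seeing the data. Members lower in Mfn1-/- oocytes numbered 3 in place of 1 after either adjustment. *Hspa9* turned to -0.064 and -0.045 and *Lonp1* to -0.14 and -0.32 by median subtraction and GC adjustment, and the other 8 members kept their direction in the 6 settings. For the wider lists the median was 0.30 with a pseudocount of 0.01 (0.299), 0.15 with 1, 0.30 with none (0.301), 0.12 after median subtraction and 0.029 after GC adjustment. The share of expressed genes past 2-fold was 8.69% as reported, 9.51% with a pseudocount of 0.01, 4.5% with 1 and 9.59% with none. It was 8.42% after median subtraction and 7.69% after GC adjustment. Past 1.5-fold the share was 23.2% as reported. The cause of these differences was not tested. The depth of single libraries is not known here, so no precision can be stated for low genes such as *Spg7*.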
